A study of Mus musculus with 44 samples.

Results

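Input RNA of C2C12 cells was compared between day 6 of differentiation, when the culture holds myotubes, and day 0, when the myoblasts were still growing. The comparison uses the 10 arrays that the table's column names assign to input RNA on these days, 5 for day 6 and 5 for day 0, of 44 arrays in the series. C2C12 is a line of mouse myoblasts, labelled female, and no genotype or drug is labelled for either group. Day 0 cells were in growth medium with fetal serum, and day 6 cells were harvested 6 days into differentiation, in medium with less serum, from horse. Input RNA was saved without immunoprecipitation, and its titles speak of DNA while the descriptions and the molecule field give RNA. The series also holds input RNA of day 3 and RNA recovered on beads with an AUF1 antibody or with control IgG, which are drawn on below. A C2C12 culture is 1 immortal line, and a differentiated culture can hold myotubes beside cells that did not fuse, so a fall of an RNA through fewer cells of a kind and through less RNA per cell cannot be told apart. The labels do not say whether the arrays of a day came from separate cultures, and the spread behind each p-value may be technical. By the column names, arrays 33 and 36 of day 0 share experiment number 1. Arrays 41 and 44 of day 6 share number 3. The 5 arrays of a day may therefore not be 5 separate experiments, and n = 5 counts arrays.

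Muscle differentiation replaces one programme of transcription with another. When serum is withdrawn, myoblasts leave the cell cycle, the myogenic transcription factors activate genes of the contractile apparatus, and the cells fuse into multinucleate myotubes. Genes of DNA replication and mitosis are shut down over the same time, while housekeeping genes keep being transcribed. An mRNA pool of this kind can change in several ways: RNAs can appear or vanish, the signal can move between RNAs present at both times, and a few very abundant RNAs can come to hold more of it. The results below take these in turn. The deposited table names probes by Illumina identifier, and 0 of its 25697 identifiers occur in the gene table used here, so the members of each group are counted as probes, no gene or cell type marker is named, and no probe sequence is shown.

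The mean signals of the arrays spanned similar ranges on both days, and 1 day 0 array lay apart from the others in composition. The day 6 arrays had mean deposited signals of 205 to 330 and the day 0 arrays of 208 to 359, in arbitrary fluorescence units. The difference in composition between 2 arrays was measured as the percentage of signal that would have to be moved from some probes to others to make the arrays alike. Day 6 arrays differed from each other by 5.53% to 12.8% (10 pairs), and day 0 arrays by 5.89% to 19.8% (10 pairs). Array 45, a day 0 array of experiment 4, lay 18.6% to 19.8% from the other 4 day 0 arrays, and these lay 5.89% to 13.8% from each other. Between the days the difference was larger than within either of them, at 23.1% to 30.3% over all 25 pairs. Without array 45 it was 23.1% to 28.7% over 20 pairs.

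By day 6 a large part of the detected RNAs had changed, and about as many had fallen as had risen. After background correction and quantile normalization, 5835 of 13750 tested probes (42.4%) differed at a limma adjusted p under 0.05, of which 2677 were higher on day 6 (19.5% of those tested) and 3158 were lower (23%). All 5 day 6 arrays lay above all 5 day 0 arrays for 1875 probes (13.6%) and below them for 2130 (15.5%). Counting only calls of at least 2-fold, 1151 probes were gained (8.37%) and 1145 were lost (8.33%), and these are called the gained and the lost probes from here on. Without array 45 the gained and lost probes numbered 1189 and 1201. Without background correction they numbered 758 and 689. Averaging the arrays of one day and experiment number before the fit gave 1103 and 1076. Quantile normalization gives all arrays the same distribution of values, so these are changes relative to the other probes and not changes of RNA per cell.

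The balance between rising and falling RNAs did not hold for the strongest changes. At least 4-fold changes were seen for 361 probes higher and 222 lower on day 6, and at least 8-fold changes for 176 higher and 41 lower. At 16-fold and above 86 probes were higher and 4 were lower, and at 128-fold and above 3 were higher and 2 lower. Most of the strong risers were not detected on every day 0 array. Of the 176 probes that were at least 8-fold higher, 59 were detected on all 5 day 0 arrays, against 10113 of all 13750 tested probes. Of the 41 that were at least 8-fold lower, 36 were still detected on all 5 day 6 arrays. Among all tested probes this was so for 10365, so detection on every day 6 array was common in general. Without background correction, which gives smaller changes for dim probes, 101 probes were at least 8-fold higher and 19 lower.

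**Figure D1:**
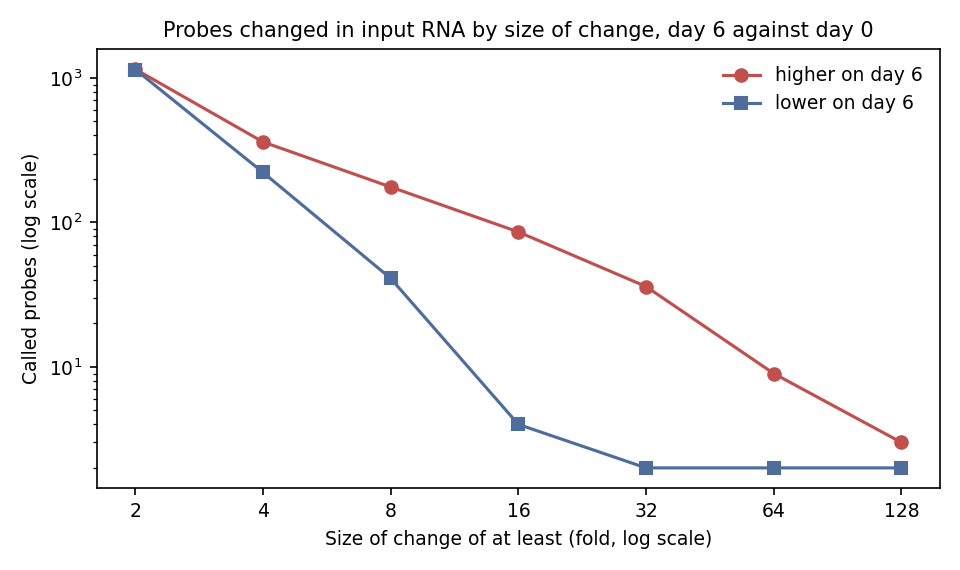
Number of probes called between the days (vertical axis, log scale) by the least size of change counted (horizontal axis, fold, log scale), with circles for probes higher on day 6 and squares for probes lower on day 6. The 2 lines start together at 1151 and 1145 probes for 2-fold and stand at 86 and 4 probes for 16-fold.

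Calls were fewest among the dimmest probes. The probes were divided into 5 equal groups of 2750 by their mean level over the 15 input arrays. In the dimmest group 19.0% were called, in the next 39.5%, and in the 3 brighter ones 49.1%, 53.1% and 51.5%. The median size of the difference, called or not, was 0.16 log2 units in the dimmest and 0.47 in the brightest group, and 0.55 in the one below it.

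On day 6 the gained probes held a larger share of the signal than on day 0, and the lost probes a smaller one. The share of an array's signal held by a group of probes was taken from background-corrected signals within each array, with no scaling between arrays. The gained probes are 4.48% of all probes on the array and 8.37% of the tested ones. In order of array number they held 18.2%, 18.6%, 19.5%, 18.2% and 18.9% of the signal on the day 6 arrays. On the day 0 arrays they held 3.40%, 3.36%, 4.38%, 4.04% and 5.79%. The lowest day 6 array was thus far above the highest day 0 array, which was array 45. The lost probes held 5.19%, 5.12%, 4.06%, 4.54% and 4.19% of the signal on the day 6 arrays, against 15.7%, 16.2%, 13.5%, 14.9% and 14.5% on the day 0 arrays. The same arrays chose these probes, so the shares are a description of how much signal moved and no test was made.

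The mean share of the gained probes was 18.7% ± 0.553 on day 6 and 4.19% ± 0.992 on day 0 (SD, n = 5 each), 4.45 times as much. The mean share of the lost probes was 4.62% ± 0.519 on day 6 and 15.0% ± 1.05 on day 0 (SD, n = 5 each). When the probes were chosen without the array on which their share was then measured, the left-out arrays gave 18.6% ± 0.230 on day 6 and 4.59% ± 1.37 on day 0 for the gained probes, and 4.94% ± 0.846 and 14.6% ± 0.730 for the lost probes (SD, n = 5 each). For arrays 33, 36, 41 and 44 the other array of the same day and experiment number stayed in the choice, so these shares may not be independent of it. Arrays of the same experiment number gave differences, day 6 minus day 0, of 14.8, 14.2, 14.8 and 13.1 percentage points for the gained probes in experiments 1 to 4, and of -10.8, -8.39, -10.6 and -10.3 for the lost probes. The same arrays chose the probes and the days do not overlap in these shares, so the sign within each experiment was fixed in advance. Only the sizes are described, from 1 or 2 arrays per day and experiment. Without array 45 the gained probes held 19.2% of the signal on day 6 and 4.00% on day 0, and the lost probes 4.89% and 15.8%.

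**Figure D2:**
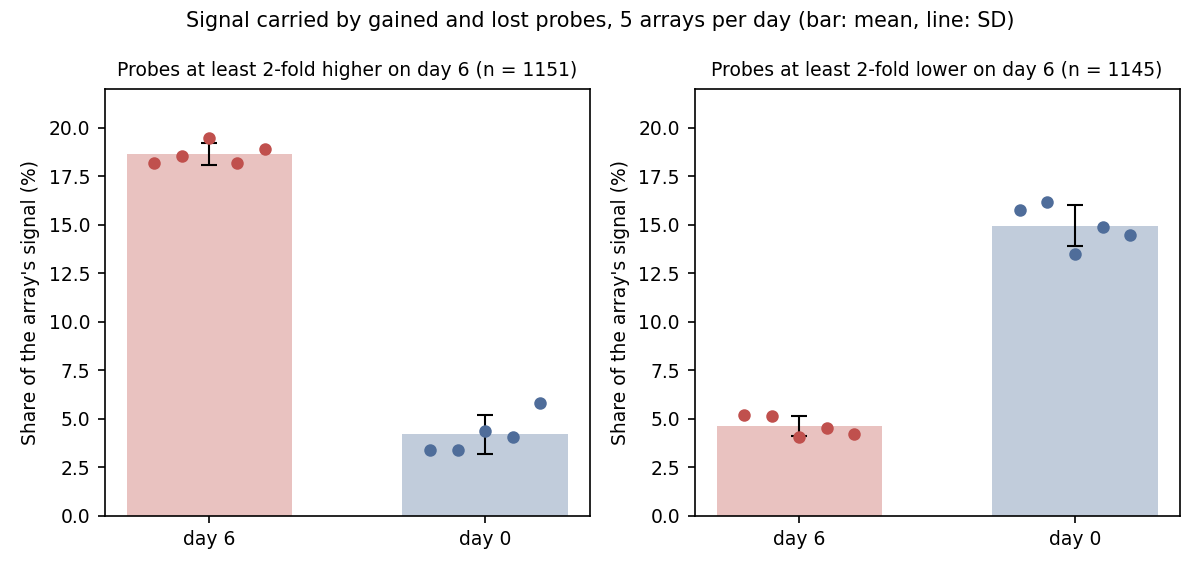
Share of each array's background-corrected signal (vertical axis, percent) held by the 1151 gained probes (left) and the 1145 lost probes (right), with points for the arrays, bars for the mean and lines for the SD of 5 arrays per day. Gained probes lie at 18.2% to 19.5% on day 6 and at 3.36% to 5.79% on day 0, and lost probes at 4.06% to 5.19% on day 6 and 13.5% to 16.2% on day 0.

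Probes with smaller changes also held a large part of the signal. The 1526 probes called higher by less than 2-fold held 15.6% ± 0.544 of the signal on day 6 and 9.89% ± 0.401 on day 0, and the 2013 called lower by less than 2-fold held 14.4% ± 0.623 on day 6 and 23.1% ± 0.456 on day 0 (SD, n = 5 each). The 7915 tested probes without a call held 45.6% ± 0.138 of the signal on day 6 and 46.8% ± 0.681 on day 0. Counting every call, probes that rose held 34.3% of the signal on day 6 and 14.1% on day 0, and probes that fell held 19.0% on day 6 and 38.1% on day 0. The 11947 probes below the detection filter held 1.08% on day 6 and 1.01% on day 0.

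Between the mean profiles of the days 23.6% of the signal sat in other probes. The gained probes made up 61.2% of the part that came in, and the lost probes 43.8% of the part that went out. The 191 probes with the largest gain in share accounted for 50% of the gain, while 296 probes were needed for 50% of the loss. The largest losses were thus less concentrated than the largest gains. Any gain in mean share was seen for 14576 probes and any loss for 11121.

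The strongest risers were a small group that came to hold a visible part of the signal. The 86 probes that were at least 16-fold higher held 5.42% ± 0.225 of the signal on day 6 and 0.216% ± 0.295 on day 0 (SD, n = 5 each). Across the day 0 arrays their share was uneven, at 0.0501% and 0.0297% on arrays 33 and 36, 0.165% on array 39, 0.100% on array 42 and 0.736% on array 45. On the day 6 arrays it was 5.13% to 5.69%. The day 0 arrays thus differed among each other in these probes, while the day 6 arrays were alike. On the log2 scale the median SD between arrays of these 86 probes was 0.29 on day 6 and 0.87 on day 0, against 0.23 and 0.30 over all 13750 tested probes.

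ILMN_2503052 gained the most signal share by mean, 0.436 percentage points, with the next probe at 0.435, a gap far below the spread between arrays. As deposited, its signal was 22379, 19419, 29925, 22738 and 21822 on the day 6 arrays, against 259, 210, 676, 460 and 2914 on the day 0 arrays. It was the brightest of all probes by mean share on day 6 and held place 1212 on day 0, or place 3434 without array 45. All day 6 values lie far above all day 0 values, among which array 45 is the highest. Its log2 level was 14.51 ± 0.14 on day 6 and 8.86 ± 1.80 on day 0 (SD, n = 5 each), a change of 5.64 ± 0.56 (SE; limma adjusted p = 3.76e-07). Without array 45 the change was 6.37, and with array weights 6.46.

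The probe with the largest loss was ILMN_2836654. Its signal was 4395, 4686, 1407, 1535 and 819 on the day 6 arrays, against 14491, 14211, 17178, 26061 and 12674 on the day 0 arrays. It was the tenth brightest probe on day 0, with a mean share of 0.293%, and stood at place 386 with 0.0481% on day 6. The groups do not overlap, and here the day 6 arrays differ more among each other than the day 0 arrays. The log2 level was 11.02 ± 1.06 on day 6 and 13.98 ± 0.19 on day 0 (SD, n = 5 each), a change of -2.96 ± 0.37 (SE; limma adjusted p = 4.69e-06). This probe lost most of its signal and was still detected on all 5 day 6 arrays.

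No change was detected in how concentrated the signal was. The 10 brightest probes of an array held 4.08% ± 0.407 of its signal on day 6 and 3.97% ± 0.476 on day 0, the 100 brightest 19.4% ± 1.12 and 19.5% ± 1.26, and the 1000 brightest 59.7% ± 1.39 and 59.4% ± 1.37 (SD, n = 5 each). The difference for the 1000 brightest was 0.26 percentage points, with a 95% interval from the exact permutation test of -1.86 to 2.52 (two-sided p = 0.738; adjusted p = 0.889 over 7 measures). The interval holds the differences that this test does not reject, and it includes 0. Without array 45 it was 0.77 percentage points for the 1000 brightest and 0.37 for the 100 brightest, against -0.13 with all arrays.

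No difference was detected in the other measures either. A number of 639 ± 45.8 probes sufficed for 50% of the signal on day 6 and 646 ± 46.2 on day 0 (SD, n = 5 each), a difference of -7.2 with an interval of -79.5 to 63.5 (exact permutation p = 0.841). The Gini coefficient, which is 0 for an even spread over probes and 1 when a single probe holds all signal, was 0.873 ± 0.00272 on day 6 and 0.874 ± 0.00249 on day 0 (exact permutation p = 0.429). The detected share of probes was 46.99% ± 1.65 on day 6 and 46.74% ± 0.742 on day 0 (exact permutation p = 0.746), a difference of 0.250 points with an interval of -1.90 to 2.12. The adjusted p of each of the 7 measures was 0.889, where the smallest p that the 252 possible splits allow is 0.00794. The differences within experiments 1 to 4 had no common sign for any of the shares of the brightest probes, with 0.197, -0.728, 1.63 and -0.397 points for the 1000 brightest.

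The dimmest arrays had the highest shares of signal in their 1000 brightest probes. The 3 arrays with the lowest mean corrected signal were arrays 47 and 44 of day 6, at 155 and 168, and array 45 of day 0, at 159. Their 1000 brightest probes held 61.1%, 61.2% and 61.5%, the highest shares among the 10 arrays. The mean corrected signal itself was 203 ± 48.0 on day 6 and 222 ± 55.0 on day 0 (SD, n = 5 each; exact permutation p = 0.579). The part of array brightness in this share was not tested.

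**Figure D3:**
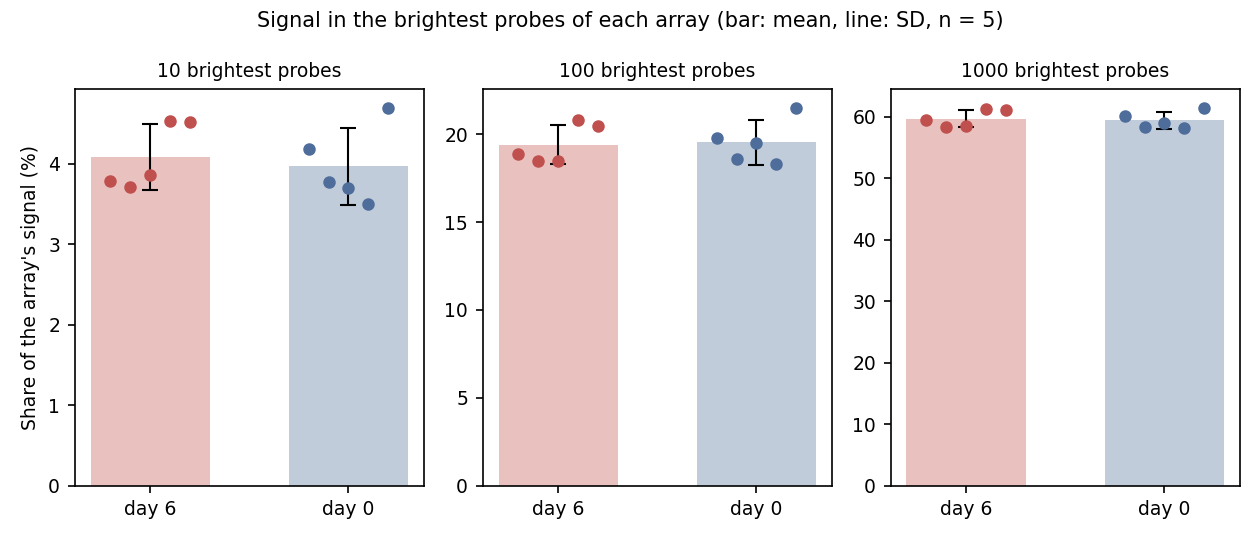
Share of each array's background-corrected signal (vertical axis, percent) held by its 10, 100 and 1000 brightest probes, with points for arrays, bars for the mean and lines for the SD of 5 arrays per day. The means of the days lie within 1 SD of each other in every panel, at 59.7% on day 6 and 59.4% on day 0 for the 1000 brightest.

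The brightest probes were partly other probes on the 2 days. By mean share 4 of the 10 brightest probes, 61 of the 100 brightest and 746 of the 1000 brightest were common to both days. Single arrays of different days shared 49 to 60 of their 100 brightest, while arrays of day 6 shared 78 to 92 and arrays of day 0 shared 75 to 94. The exchange between the days was therefore larger than between arrays of a day. Of the 39 probes that were among the 100 brightest on day 6 and not on day 0, 25 were gained probes. Of the 39 that left the 100 brightest, 16 were lost probes. Of all tested probes 8.37% were gained and 8.33% lost. The same arrays gave the ranks and the calls, so the choice of these probes largely fixed their direction and the counts are a description.

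Complete switches of RNAs were few and carried little signal. A probe counts as detected on an array when its deposited detection p, which sets it against the array's negative controls, is under 0.05. Of 25697 probes, 9276 (36.1%) were detected on all 10 arrays and 10148 (39.5%) on none. The probes detected on all 10 held 94.8% of the signal on day 6 and 97.5% on day 0. Most of the signal thus lay in RNAs detected on every array of both days.

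A probe was called switched on when it was detected on all 5 day 6 arrays and on none of the 5 day 0 arrays, which was so for 184 probes (0.716% of all). The reverse, switched off, was seen for 94 probes (0.366%). With detection on at least 4 arrays of one day and at most 1 of the other, 442 probes were switched on and 342 off. Without array 45 the complete switches numbered 254 on and 126 off. Some probes cross the detection threshold on single arrays: 672 probes were detected on 1 day 6 array and no day 0 array, with 848 the other way. In all, 2749 probes were detected on more arrays of day 6 and 2805 on more arrays of day 0. More switches on than off were thus counted among the complete switches, and not in detection as a whole.

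**Figure D4:**
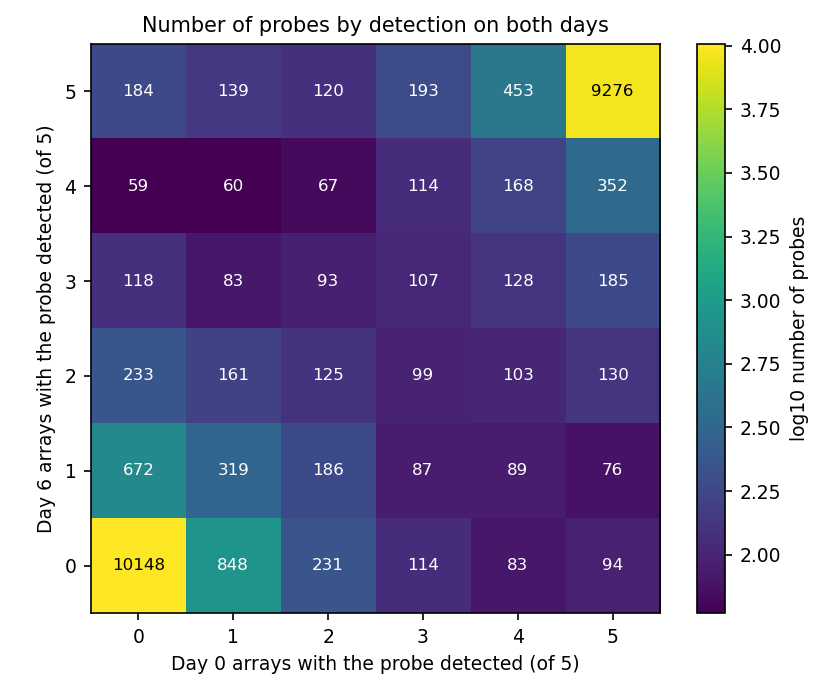
Number of probes (printed in each cell, colour on a log10 scale) by how many of the 5 day 6 arrays (vertical axis) and of the 5 day 0 arrays (horizontal axis) detected them. The corners hold the 9276 probes detected on all 10 arrays, the 10148 on none, the 184 switched on (upper left) and the 94 switched off (lower right).

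Most of the switched probes were dim on the day on which they were detected. The corrected signal of the 184 probes on day 6 had a median of 42.2 and ran from 10.9 to 968, with 42 probes over 100. That of the 94 probes on day 0 had a median of 26.2 and ran from 12.3 to 169, with 5 probes over 100. Together the switched-on probes held 0.305% ± 0.0408 of the signal on day 6 and 0.0171% ± 0.00322 on day 0, and the switched-off probes 0.0106% ± 0.00129 on day 6 and 0.0615% ± 0.00976 on day 0 (SD, n = 5 each). The choice of these probes fixed their direction, so their calls are a description. In the limma test 179 of the 184 were higher on day 6 and 120 of them belonged to the gained probes, while 92 of the 94 were lower and 41 belonged to the lost probes.

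The brightest switched-on probe was ILMN_1234662. Its signal as deposited was 1242, 1797, 1262, 301 and 499 on the day 6 arrays, against 48.5, 52.5, 62.4, 51.7 and 57.2 on the day 0 arrays, where the inferred mean of the negative controls was 50.5 to 55.8. The day 0 values lie around that background, and the day 6 values fall into 3 high and 2 lower arrays, all above it. Entering each day 0 array with the larger of the probe's own level and that of the dimmest detected probe gave a 32.5-fold higher mean level on day 6. This value depends on the background correction and is no lower limit. The fitted log2 change was 5.28 (limma adjusted p = 3.05e-08), and 4.01 without background correction.

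The brightest switched-off probe was ILMN_2919999. Its signal was 56.8, 60.5, 60.7, 56.7 and 53.3 on the day 6 arrays, against 190, 275, 250, 303 and 96.1 on the day 0 arrays. The day 6 values are close to the background of 50.0 to 54.7 on these arrays, and array 45 holds the lowest of the day 0 values. With the dimmest detected probe as the floor on each day 6 array, its mean level was 6.08-fold lower on day 6. This value too depends on the background correction and is no lower limit. The fitted log2 change was -2.78 (limma adjusted p = 8.08e-09), and -1.74 without background correction.

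On day 3 the shares of the gained and lost probes were nearer to day 6 than to day 0. The gained probes held 4.19% of the signal on day 0, 16.4% ± 1.30 on day 3 and 18.7% on day 6, and the lost probes 15.0%, 5.34% ± 0.439 and 4.62% (SD, n = 5). Of the 184 switched-on probes 113 were detected on all 5 day 3 arrays and 4 on none. Of the 94 switched-off probes 55 were undetected on all 5 day 3 arrays and 0 were detected on all. All these probes were among the 13750 tested ones, of which 10413 were detected on all 5 day 3 arrays and 433 on none. Of the 11947 probes below the detection filter, 11203 were detected on no day 3 array. The 1000 brightest probes held 59.4% of the signal on day 0, 59.4% ± 0.708 on day 3 and 59.7% on day 6. The probes were chosen for day 6 against day 0, so the day 3 values are given as levels alone.

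Pulldown arrays, which the input comparison did not use, gave a second measurement of the same probes. On them the RNA had been recovered with an AUF1 antibody or with IgG from lysates of the same cell line, with 4 arrays per antibody on each of both days. The gained probes held 7.93% to 10.7% of the signal on AUF1 day 6 arrays and 4.50% to 4.57% on AUF1 day 0 arrays, and 9.49% to 10.6% on IgG day 6 arrays and 5.22% to 5.70% on IgG day 0 arrays. The lost probes held 8.19% to 10.4% on AUF1 day 6 arrays and 12.9% to 13.8% on AUF1 day 0 arrays, and 8.38% to 9.94% on IgG day 6 arrays and 11.9% to 12.4% on IgG day 0 arrays. The days did not overlap in any of these 4 sets of values, and the direction was that of input RNA. The distance between the days was smaller than in input RNA, and this was not tested.

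**Figure D5:**
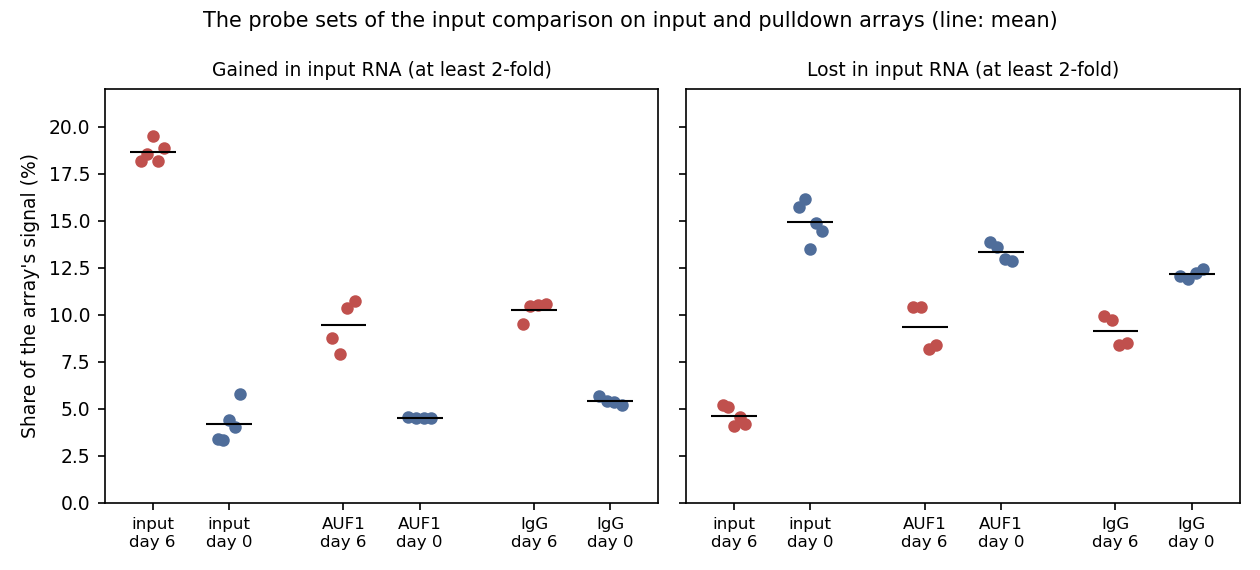
Share of each array's background-corrected signal (vertical axis, percent) held by the gained (left) and lost (right) probes of the input comparison, on input arrays (5 per day) and on AUF1 and IgG pulldown arrays (4 per antibody and day), with a line for each mean. In all 3 kinds of RNA gained probes lie higher and lost probes lower on day 6 than on day 0, and the distance between the days is widest in input RNA.

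Most pulldown calls among the gained and lost probes had the direction of the input change. Of the 13812 probes tested there, 572 were higher (4.14%) and 460 lower (3.33%) on day 6 with AUF1 at a limma adjusted p under 0.05, and 268 were higher (1.94%) and 53 lower (0.384%) with IgG. With median scaling in place of quantile normalization the AUF1 calls were 220 higher and 148 lower and the IgG calls 209 and 32. That scaling placed the median AUF1 change of all probes at -0.12, against 0.014. A replicate block on the experiment number gave more calls, 988 higher and 857 lower with AUF1 and 475 and 177 with IgG. Of the gained probes 1077 were tested, and 227 of them (21.1%) were higher and 3 lower with AUF1, while 182 (16.9%) were higher and 2 lower with IgG. Of the lost probes 1123 were tested, and 99 of them (8.82%) were lower and 18 higher with AUF1, while 26 (2.32%) were lower and 2 higher with IgG. Under median scaling 138 gained probes were higher and 43 lost probes lower with AUF1, and 165 and 18 with IgG. Single arrays weighed most on the lower calls, with 64 lost probes lower without AUF1 day 0 array 18, and 17, 15, 9 and 10 without IgG arrays 7, 23 and 31 of day 6 and 17 of day 0. Seen from the other list, gained probes were 39.7% of the AUF1 and 67.9% of the IgG calls that were higher, and lost probes were 21.5% and 49.1% of the calls that were lower.

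The sizes were smaller than in input. The median log2 change of the gained probes was 0.43 with AUF1 and 0.47 with IgG, against 0.014 and -0.017 over all tested probes. That of the lost probes was -0.23 and -0.28. Under median scaling the AUF1 medians were 0.39 for the gained and -0.25 for the lost probes, so the lost probes lay closer to the median of all. Across the 12511 probes tested in both kinds of RNA, which are not independent replicates, the changes correlated at r = 0.41 between input and AUF1 and at 0.54 between input and IgG. Detection ranged from 28.6% to 46.3% of probes on these 16 pulldown arrays, against 44.7% to 48.7% on the 10 input arrays, and its part in the smaller sizes was not tested.

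The 4 named probes kept their direction in the pulldowns. ILMN_2503052 was higher on day 6 by 1.52 ± 0.43 (log2, SE) with AUF1 and by 2.83 ± 0.43 with IgG (limma adjusted p = 0.0276 and 0.00015). ILMN_2836654 changed by -2.35 ± 0.43 with AUF1 and -1.92 ± 0.43 with IgG (adjusted p = 0.001 and 0.0116). Each was called in both pulldowns. ILMN_1234662 was detected on all 4 AUF1 day 6 arrays and on none of the AUF1 day 0 arrays, with a log2 change of 2.96 ± 0.88 (adjusted p = 0.0386). With IgG it was detected on 3 of 4 day 6 and 0 of 4 day 0 arrays, and the change of 2.69 ± 0.88 was not called (adjusted p = 0.14).

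Some switched-off RNAs were detected in the pulldowns of day 6. ILMN_2919999, undetected on every day 6 input array, was detected on 2 of 4 AUF1 and 3 of 4 IgG arrays of day 6, and on 3 and 4 of those of day 0. It changed by -1.24 ± 0.31 with AUF1 and by -1.17 ± 0.31 with IgG (log2, SE; limma adjusted p = 0.0115 and 0.0383). Of the 94 switched-off probes 19 were detected on all 4 IgG day 6 arrays and 22 on all 4 IgG day 0 arrays, and with AUF1 it was 11 and 14. Of all 25697 probes, these arrays detected 32.1% on all day 6 and 30.9% on all day 0 arrays with IgG, and 28.97% and 26.02% with AUF1. Of the 184 switched-on probes 59 were detected on all 4 IgG day 6 arrays and 7 on all 4 IgG day 0 arrays, and with AUF1 it was 24 and 6.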

How the data were processed

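Illumina bead arrays measured C2C12 RNA amplified with an oligo-dT primer and labelled with biotin, per the labels' protocols. The deposited table holds a signal intensity that was not normalized, as its name states, and a deposited detection p-value for each probe and array. GenomeStudio 1.6.0 is the tool in the submitters' processing notes. No source used here states a background subtraction, and the lowest input signal was 32.7. All 44 signal columns matched a group (0 did not), and 0 pairs were identical. Column names give an experiment and an array number but no replicate number of the titles, so columns were assigned to groups.

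Log2 levels came from limma 3.58.1 in R 4.3.3: normal-exponential background correction with negative controls inferred from the detection p-values, an offset of 16, quantile normalization, separately for 15 input and 29 pulldown arrays. Probes with detection p under 0.05 on at least 3 arrays were tested (13750 and 13812), with 1 mean per group, eBayes and Benjamini-Hochberg adjustment over all tested probes. Shares of signal used the same background correction with offset 0 and no scaling between arrays. Single values per array were compared by two-sided exact permutation of 5 against 5 arrays, adjusted over 7 measures, with 95% intervals by inverting that test. The number of arrays limits the precision. On simulated data with 100 of 13750 probes changed 2-fold and 100 changed 4-fold, the day 6 against day 0 fit recovered 80% and 100%, with 11 false calls. The simulation held far fewer changed probes than the 42.4% called here, independent noise and no outlying array. Its figures may therefore not carry over to these data.

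Named probes are the largest gain and loss of signal share among called probes, and the brightest switched-on and switched-off probe; this is what the rule fixed for probes without gene names, and the gene lists and markers fixed for named genes were not used here. The input p-values of the named probes belong to extremes picked from the same arrays and are a description. The comparison, the groups of probes and the tests were chosen with earlier results of these data known.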

Additional observations from a re-analysis of the deposited data

How the results depend on the processing

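The number of changed probes and the number of gained and lost probes were recomputed under 10 other settings and without each of the 10 arrays in turn. The count of 5835 stayed between 5107 and 7120 under the 10 settings and between 5273 and 6142 without single arrays. All 5835 probes kept their sign under median scaling, with array weights and without background correction. Of them 5335, 5656 and 5661 were still called, in that order, and 5047 when arrays of one day and experiment were averaged. Without background correction 1447 probes changed by at least 2-fold, against 2296. Without single arrays that count was 2194 to 2425. A replicate block on the experiment number gave 5888 calls, 2269 of them of at least 2-fold, and with runs of 3 array numbers as a replicate block, chosen after seeing the data, 6106 and 2308. The named probes kept direction and call in all 20 alternatives. They had been picked as extremes among called probes of the same arrays, which largely fixed this, so it is a description. Without single arrays 189 to 254 probes were switched on and 94 to 129 off; with at least 4 against at most 1 array it was 442 and 342. Gained probes held 15.8% of the day 6 signal and lost probes 12.97% of the day 0 signal without correction. For any called probe the gained shares were 34.3% and 14.1% and the lost shares 19.0% and 38.1% on days 6 and 0, and for 4-fold changes 9.59% and 0.795%, and 0.586% and 4.21%. Without single arrays the gained shares were 18.1% to 19.5% on day 6 and 3.99% to 4.61% on day 0, and the lost shares 4.43% to 4.97% and 14.3% to 16.1%.

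Each of the 7 measures of concentration changed sign under at least 1 alternative, and the lowest adjusted exact permutation p under any alternative was 0.556. Without correction the difference for the 1000 brightest was -0.352 points and that of the probes for 50% of the signal was 22; with detected probes alone the Gini difference was 0.000876, while without single arrays it stayed negative, at -0.00207 to -0.000346. Without single arrays the differences ran from -0.121 to 0.767 points for the 1000 brightest, from -0.470 to 0.366 for the 100 brightest, from -0.00676 to 0.293 for the 10 brightest, from -24.6 to 5.35 for the probes for 50%, from -0.173 to 0.823 points for detection and from -37.6 to 2.57 for the mean signal. Arrays of one experiment number were not taken as pairs, since the labels state no block. Their deviations from the day means correlated at -0.14 to 0.21 in input RNA (6 pairs). On pulldown arrays they correlated at 0.035 to 0.59 with AUF1 and at -0.023 to 0.69 with IgG. The best match was the own number for 2 of 4 AUF1 and 3 of 4 IgG arrays of day 6. In the pulldowns a replicate block on the experiment number gave 1845 calls with AUF1 and 652 with IgG (988 higher and 857 lower, and 475 and 177), against 1032 and 321, with 330 gained probes higher and 164 lost probes lower with AUF1 and 283 and 76 with IgG, and median scaling gave 368 with AUF1. Without single arrays AUF1 calls were 727 to 948 and IgG calls 222 to 330. The cause of these shifts was not tested.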
